A study of Mus musculus with 8 samples.

Results

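The Zfp genes that carried an m6A peak are described here. They were the protein-coding genes whose symbol begins with Zfp and a digit, with Zfp42 and Zfp352 left out, and they were chosen by the presence of a peak: at least 1 base of a peak of the DMSO or the Dox list had to lie in an exon of the gene on its own strand. The rule was met by 144 of 392 Zfp genes (36.7%, 95% Wilson interval 32.1 to 41.6), against 28.2% of the 22028 protein-coding genes of the annotation, of which 6213 carried a peak. Since the same peaks chose the genes, this share is a description and supports nothing.

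The libraries came from E14 cells, a mouse embryonic stem cell (ESC) line. Per the study, all of these cells held a Dux transgene that doxycycline (Dox) switches on, with a tdTomato reporter under the Mervl promoter, and Dux drives ESCs towards a state that resembles the 2-cell embryo (2C-like cells). Cultures received DMSO, the control, or Dox, in both cases for 24 h, and no sorting of reporter-positive cells was described for these libraries. Poly(A) RNA was fragmented and precipitated with an antibody against m6A (IP) or sequenced without selection (input), which gave 8 libraries in 4 groups of 2 (IP and input, each from DMSO and from Dox cultures). The deposited data hold 1 list of peaks per treatment with the replicates combined, 18895 peaks for DMSO and 13001 for Dox, so each value below has no replicate spread, no test between treatments was possible, and intervals cover counting error only.

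Zfp genes encode zinc-finger proteins, most of them with arrays of C2H2 fingers in which a pair of cysteines and a pair of histidines hold a zinc ion and the fingers in a row read a stretch of DNA. The largest group also has a KRAB domain, which recruits the co-repressor Trim28 (KAP1) and with it the histone methyltransferase Setdb1, and which silences endogenous retroviruses and protects imprints in ESCs and early embryos. These genes arose in clusters by duplication, and their finger arrays usually lie in a single long last exon. m6A is written by the Mettl3 and Mettl14 methyltransferase mainly at DRACH sequences (D is any base but C, R a purine, H any base but G) of long internal exons and around stop codons, and readers of the YTH family bind it and can speed the decay of the mRNA.

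Peaks that the results turn on are printed first, 5′ to 3′ on the mRNA strand, with the core motif GGAC in capitals and positions of the mm10 (GRCm38) build, read from the RefSeq copy of that genome. All lie within coding sequence. Zfp638, whose peaks were found in the DMSO list alone, is shown by its best-scoring peak, which held no GGAC, and by the 2 peaks of 125 nt that held it. The single peak of Zfp346, which was found after Dox alone, ends close to the stop codon.
Zfp638 DMSO, chr6:83928896-83929020, + strand: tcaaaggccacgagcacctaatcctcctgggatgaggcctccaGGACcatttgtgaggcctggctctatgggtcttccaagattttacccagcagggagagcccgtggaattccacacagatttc
Zfp638 DMSO, chr6:83976935-83977184, + strand: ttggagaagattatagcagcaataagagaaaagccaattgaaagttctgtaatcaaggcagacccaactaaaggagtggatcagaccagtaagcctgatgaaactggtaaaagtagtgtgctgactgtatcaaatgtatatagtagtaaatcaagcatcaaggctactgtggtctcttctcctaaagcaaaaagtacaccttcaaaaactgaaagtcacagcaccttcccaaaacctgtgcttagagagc
Zfp638 DMSO, chr6:83979733-83979857, + strand: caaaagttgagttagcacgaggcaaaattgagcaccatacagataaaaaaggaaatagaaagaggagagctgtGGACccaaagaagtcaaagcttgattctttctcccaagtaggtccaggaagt
Zfp346 Dox, chr13:55132325-55132374, + strand: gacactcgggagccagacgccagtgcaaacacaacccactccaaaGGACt

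The next set shows peaks present in both lists, in which the Dox peak was the shorter one and lay inside the DMSO peak. For Zfp462 both peaks held GGAC at 2 places, and for Zfp292 at 1 place.
Zfp462 DMSO, chr4:55013495-55013744, + strand: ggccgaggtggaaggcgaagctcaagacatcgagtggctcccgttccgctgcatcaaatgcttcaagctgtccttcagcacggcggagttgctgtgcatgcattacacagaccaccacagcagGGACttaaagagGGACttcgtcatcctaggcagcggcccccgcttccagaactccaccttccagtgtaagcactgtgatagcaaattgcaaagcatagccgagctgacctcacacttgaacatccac
Zfp462 Dox, chr4:55013570-55013744, + strand: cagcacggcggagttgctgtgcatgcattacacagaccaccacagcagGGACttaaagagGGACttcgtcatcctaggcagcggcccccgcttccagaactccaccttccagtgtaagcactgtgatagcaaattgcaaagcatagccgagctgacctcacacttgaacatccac
Zfp292 DMSO, chr4:34811513-34811637, - strand: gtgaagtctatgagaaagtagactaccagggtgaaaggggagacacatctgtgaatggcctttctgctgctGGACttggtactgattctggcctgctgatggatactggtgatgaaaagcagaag
Zfp292 Dox, chr4:34811513-34811612, - strand: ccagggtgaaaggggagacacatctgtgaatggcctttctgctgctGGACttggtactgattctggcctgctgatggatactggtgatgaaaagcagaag

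The last set contrasts finger-coding with other coding sequence. The best Zfp992 peak, a Dox peak inside a DMSO peak of 450 nt, lies before the finger array and holds GGAC, whereas a DMSO peak of which 157 of 175 nt encode fingers and the best Zfp951 peak, all of it finger sequence, hold none. All 3 had a near-identical copy elsewhere in the genome, so their reads cannot be assigned to 1 locus with certainty.
Zfp992 Dox, chr4:146465993-146466192, + strand: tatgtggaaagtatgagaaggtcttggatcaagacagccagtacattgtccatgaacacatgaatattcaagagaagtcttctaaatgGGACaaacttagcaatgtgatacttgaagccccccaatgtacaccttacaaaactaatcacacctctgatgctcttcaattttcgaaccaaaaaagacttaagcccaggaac
Zfp992 DMSO, chr4:146467293-146467467, + strand: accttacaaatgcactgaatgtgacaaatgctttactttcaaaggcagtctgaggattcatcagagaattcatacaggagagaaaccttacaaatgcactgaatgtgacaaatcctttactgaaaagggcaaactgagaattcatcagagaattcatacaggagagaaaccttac
Zfp951 DMSO, chr5:104814669-104814768, - strand: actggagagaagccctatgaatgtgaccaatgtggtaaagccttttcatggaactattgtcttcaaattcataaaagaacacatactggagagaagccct

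Fewer Zfp genes carried a peak after Dox than after DMSO. A DMSO peak was found on 142 of the 144 genes (98.6%), a Dox peak on 98 (68.1%), and both on 96 (66.7%), where all protein-coding genes with a peak had 97.6%, 78.5% and 76.1%. In 46 genes peaks were confined to the DMSO list (31.9%, 24.9 to 39.9), against 21.5% of all protein-coding genes with a peak and 23.9% (17.1 to 32.4) of the 117 other genes with a peak that encode 3 or more C2H2 fingers and are not named Zfp. Only Zfp972 and Zfp346 had a peak in the Dox list alone (1.39%, background 2.4%). By number of peaks, 111 genes had more in the DMSO list (77.1%, 69.6 to 83.2, background 59.1%), 15 had more in the Dox list (10.4%, 6.41 to 16.5, background 12.7%) and 18 had as many in both (12.5%, 8.06 to 18.9, against 28.3% of all protein-coding genes with a peak).

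In total 549 DMSO peaks and 320 Dox peaks lay on these genes, a ratio of 1.72 (1.5 to 1.97), where the whole lists had a ratio of 1.45 (1.42 to 1.49) and the other C2H2 genes 1.36 (1.18 to 1.56). With the DMSO list reduced to its 13001 best-scoring peaks, as many as the Dox list holds, the ratio was 1.06 (0.912 to 1.24), and 23 of the 121 Zfp genes that then had a peak were in the DMSO list alone (19%, 13 to 26.9, background 12.1%). Whether more cells or more RNA of a gene lay behind a peak cannot be told apart in bulk RNA, and neither read depth nor expression was analysed here.

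**Figure D1:**
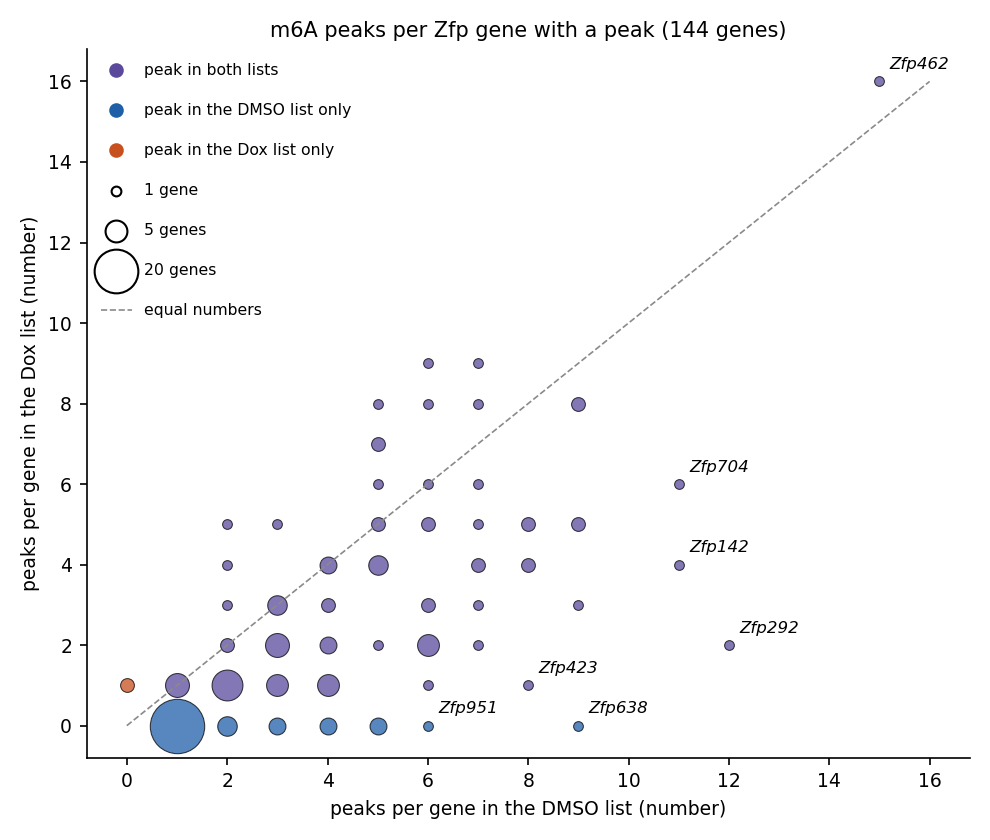
Number of m6A peaks of each of the 144 Zfp genes in the DMSO list (x axis) and the Dox list (y axis), with the area of a point in proportion to the number of genes on it. Most points lie under the dashed line of equal numbers, the 46 genes with DMSO peaks only lie on the x axis with Zfp638 at 9 peaks, and Zfp462 stands apart at 15 and 16 peaks.

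The Zfp peaks were mostly weak. The score of a peak, taken to be the authors' −log10 p-value of IP over input, had a median of 11.4 in both lists (11.6 and 11.5 for all protein-coding genes) against a floor of 10, and the best Zfp score was 19.5 for DMSO and 21.98 for Dox, where the highest finite scores of all protein-coding genes were 295.5 and 294.1. A score of at least 15 was reached by 20 of 549 DMSO peaks (3.64%, 2.37 to 5.56), against 10.7% of the whole list, and by 17 of 320 Dox peaks (5.31%, 3.34 to 8.34), against 8.78%. The 46 genes in the DMSO list alone were the weaker ones there. Their best DMSO score had a median of 11.1 (10.2 to 13.4), 31 of them had a single peak, and their peaks covered a median of 100 nt of exon. The 96 genes in both lists had a median best DMSO score of 13 (10.5 to 19.5), a median of 4 DMSO peaks and 812.5 nt of exon under them.

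Nearly all Dox peaks of Zfp genes overlapped a DMSO peak, a share close to that of all protein-coding genes, while fewer of their DMSO peaks overlapped a Dox peak. A DMSO peak overlapped 306 of the 320 Dox peaks (95.6%, 92.8 to 97.4, background 92.8%), whereas a Dox peak overlapped 248 of the 549 DMSO peaks (45.2%, 41.1 to 49.4, background 57.1%). Among DMSO peaks this share rose with the score. It was 10.2% (6.45 to 15.7) among the 25% of peaks with the lowest scores of the list and 73.0% (63.0 to 81.2) among the 25% with the highest, where all protein-coding genes had 20.8% and 82.3%. Of the DMSO Zfp peaks, 167 were in the lowest 25% and 89 in the highest 25%.

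**Figure D2:**
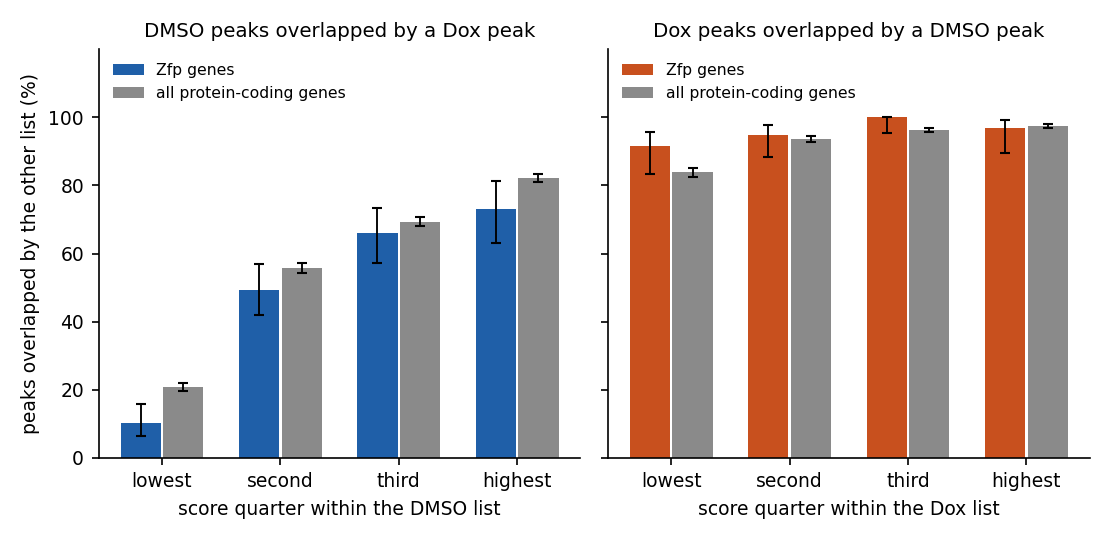
Share of peaks overlapped by a peak of the other list (y axis, %) by the score of the peak within its own list (x axis, steps of 25% of the peaks), for the Zfp genes (coloured) and all protein-coding genes (grey), with 95% Wilson intervals. The DMSO share of the Zfp genes climbs from 10.2% to 73.0%, while the Dox share is 91.5% or more at every step.

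Taken over all Zfp peaks, median lengths were 125 nt for DMSO and 150 nt for Dox. Where the lists could be compared peak by peak, the DMSO peak was usually the longer, on Zfp genes as on others. Of 197 pairs of 1 DMSO and 1 Dox peak that overlapped only each other, the DMSO peak was the longer in 151 (76.6%, 70.3 to 82.0, background 68.9%) and the Dox peak in 24, with median lengths of 225 and 150 nt (200 and 150 nt over such pairs on all protein-coding genes). Among the 96 Zfp genes in both lists, DMSO peaks covered more exon bases in 90 (93.8%, 87.0 to 97.1), against 85.7% of all genes in both lists. This held for 12 of the 13 genes in both lists that had more Dox than DMSO peaks, and Zfp865, with 125 nt under DMSO and 250 nt under Dox peaks, was the exception. On Zfp990, for example, 1 DMSO peak of 1025 nt was overlapped by 4 separate Dox peaks, and on Zfp574 6 DMSO peaks covered 1750 nt and 9 Dox peaks 1525 nt. Of the 96 genes in both lists, 2 (2.08%, 0.573 to 7.28), Zfp512 and Zfp955b, had a peak in each list at places that did not overlap. Their scores were 11.63 and 10.53 for DMSO and 10.09 and 10.02 for Dox, where the floor was 10. This share is not given over all protein-coding genes.

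Zfp638 encodes a nuclear protein that binds nucleic acids and silences unintegrated retroviral DNA together with the HUSH complex. Its gene spans 83867109 to 83989550 on the plus strand of chromosome 6. It carried 9 peaks in the DMSO list, the most of any Zfp gene without a Dox peak, and none in the Dox list. The 9 peaks covered 975 nt of its coding sequence and lay in 3 of its 28 exons, 2 in exon 2 (1513 nt), 4 in exon 22 (1228 nt) and 3 in exon 24 (916 nt). Their scores ran from 10.2 to 11.6, the best lay at percentile 49.1 of the DMSO list, and 3 of the 9 held GGAC. None touched the sequence of its 2 C2H2 matches, and none had a near-identical copy elsewhere.

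Zfp462, which guards ESC identity and lies on chromosome 4, had the most peaks of all, 15 for DMSO and 16 for Dox. Exon 3, of 5594 nt, held 12 and 13 of them. DMSO peaks covered 5475 nt with scores from 11.3 to 15.4, and Dox peaks covered 3475 nt with scores from 10.3 to 15.4. Each Dox peak overlapped a DMSO peak, 12 of the 15 DMSO peaks overlapped a Dox peak, and 13 peaks in either list held GGAC. Zfp292, a transcription factor gene with an exon 8 of 8931 nt, had 12 DMSO peaks, of which 2 were overlapped by a Dox peak. The 12 covered 1175 nt with scores from 10.1 to 12.3, and the Dox peaks covered 125 nt. Zfp423, a transcription factor that works with the SMAD proteins of BMP signalling, similarly had 8 DMSO peaks and 1 Dox peak.

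**Figure D3:**
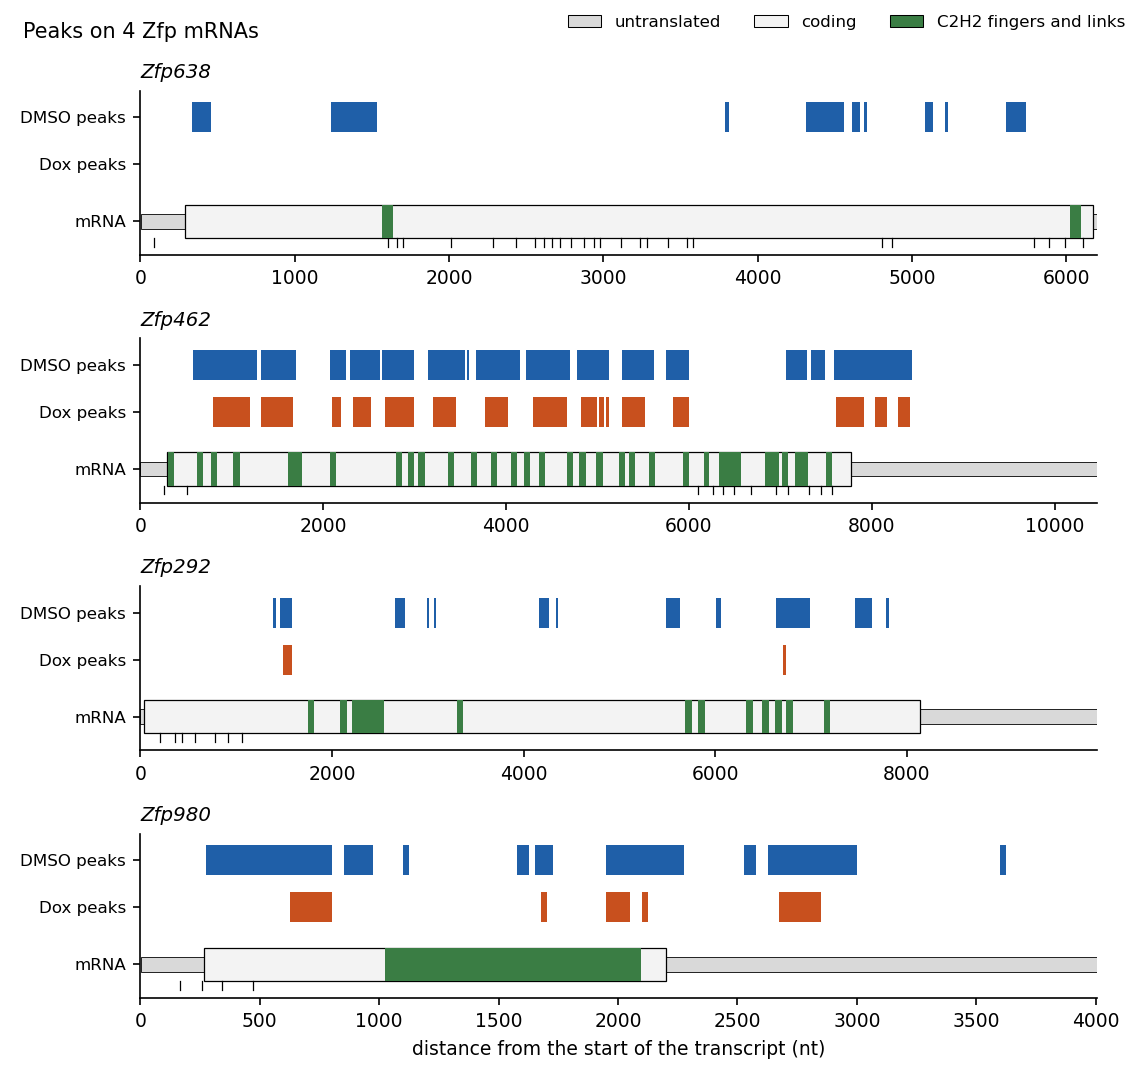
Positions of DMSO peaks (blue) and Dox peaks (orange) along the mRNAs of Zfp638, Zfp462, Zfp292 and Zfp980 (x axis, nt from the start of the transcript), with untranslated sequence in grey, coding sequence in pale grey, C2H2 fingers and their links in green and ticks at exon junctions. Zfp638 has 9 DMSO peaks and no Dox peak, Zfp462 has 15 and 16, Zfp292 has 12 and 2, and Zfp980 has 9 and 5. All Zfp980 peaks had a near-identical copy elsewhere in the genome, so their gene is uncertain.

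The other genes with most peaks were Zfp704 with 11 DMSO and 6 Dox peaks, Zfp646 and Zfp518b with 9 and 8 each, Zfp710 with 7 and 9, Zfp609 with 7 and 8, Zfp574 with 6 and 9 and Zfp142 with 11 and 4. On Zfp704, 10 of the 11 DMSO peaks had their middle base in the last exon of 11879 nt. The 20 Zfp genes with most peaks held 299 of all 869 peaks (34.4%). The smallest members were those with 1 peak over both lists, 33 genes in all, among them Zfp326 (25 nt, score 10.2) and Zfp971 (25 nt, score 10.2). Just outside the rule was Zfp935, whose span held 3 peaks that fell in exons of Zfp934 and not in its own. All 3 had a near-identical copy elsewhere, so the gene they belong to is uncertain.

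The best scores went to different genes in the 2 lists. For DMSO they were Zfp217 (19.5), Zfp936 (18.96), Zfp961 (16.9), Zfp568 (16.9) and Zfp57 (16.5), and for Dox Zfp706 (21.98), Zfp992 (19.5), Zfp972 (18.7), Zfp532 (18.02) and Zfp990 (18). The best peaks of Zfp961 and Zfp990 were 25 nt long, and those of Zfp936, Zfp992, Zfp972 and Zfp990 had a near-identical copy elsewhere. Zfp217, a transcription factor that restrains m6A in ESCs by holding Mettl3, had 5 peaks in each list over 3050 and 3075 nt, and every one overlapped a peak of the other list. Its best peak scored 19.5 after DMSO and its best after Dox scored 14.5.

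Among the genes known for silencing retroelements and guarding imprints with Trim28, 6 of 7 listed carried a peak, with 21 DMSO and 14 Dox peaks. Of all 392 Zfp genes, 36.7% carried a peak. The role lists here and below were chosen with earlier results of these data known, so their counts do not show that a role is enriched for peaks. Zfp57, which maintains imprints, had 3 peaks in each list with best scores of 16.5 and 13.2, and Zfp445, which shares that task, had 6 and 3. Zfp568, the repressor of a placental Igf2 transcript, had 8 DMSO and 4 Dox peaks, and a DMSO peak of 1350 nt across its stop codon matched a Dox peak of 1300 nt. Zfp809, which silences murine leukemia virus elements, had 2 DMSO peaks over 1275 nt and 4 Dox peaks over 1000 nt. Zfp819 and Zfp932 each had 1 peak of 25 nt, in the DMSO list alone, and Zfp708 had none.

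The partners of these proteins, which are no Zfp genes, were read in the same way. Of 15 listed, 14 carried a peak, with 85 DMSO and 65 Dox peaks, and 13 were in both lists. Over all protein-coding genes 28.2% carried a peak, and 76.1% of those with a peak were in both lists. Trim28 had 8 DMSO and 5 Dox peaks with best scores of 47.3 and 22.4, Setdb1 had 8 and 4, and the HUSH subunit gene Mphosph8 had 2 and 1. Cbx3, which encodes a heterochromatin protein, had 3 DMSO peaks and no Dox peak, and the HUSH subunit gene Pphln1 had none.

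Transcription factors of ESCs carried peaks in 8 of 9 listed cases (background of all Zfp genes 36.7%), 40 for DMSO and 30 for Dox. Of these genes 7 were in both lists, as were 66.7% of all Zfp genes with a peak. Zfp281, which tempers Nanog expression, had 5 DMSO and 4 Dox peaks, Zfp296, which acts with the NuRD complex, had 1 wide peak in each list, over 600 and 675 nt, and Zfp143, an activator at promoters, had 2 and 1. Zfp706, needed for ESCs to leave self-renewal, had 3 and 2 peaks, and its best score was 14.1 for DMSO and 21.98 for Dox. Zfp322a had 1 DMSO peak alone and Zfp521 had none.

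Genes for RNA-binding and ribosome control carried peaks in 10 of 12 listed cases (background of all Zfp genes 36.7%), 46 for DMSO and 23 for Dox. Zfp36l1 and Zfp36l2, which destabilise mRNAs with AU-rich elements, had 4 and 4 and 6 and 3 peaks. Zfp598, the ubiquitin ligase of collided ribosomes, had 7 and 4, Zfp106 8 and 5, Zfp207 5 and 2, Zfp622 4 and 2 and Zfp830 2 and 2. Zfp326, of a complex that couples elongation to splicing, and Zfp638 were in the DMSO list alone, and Zfp346, which binds double-stranded RNA, had 1 peak (50 nt, score 12.96) and that in the Dox list. No peak lay on Zfp36 or Zfp36l3. Among genes of chromatin complexes 8 of 9 listed carried peaks (background of all Zfp genes 36.7%), 40 for DMSO and 33 for Dox. Zfp532, Zfp592 and Zfp687, which form a complex with Zmynd8, had 5 and 8, 6 and 5, and 3 and 3 peaks, and Zfp609, a partner of the cohesin loader, had 7 and 8. Zfp644 and Zfp518a, partners of the G9a and GLP methyltransferases, had 5 and 3 DMSO peaks and no Dox peak, while their relative Zfp518b had 9 and 8. Zfp131, a BTB-domain protein, had 2 and 1, and Zfp335 had none.

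Among the genes without a Dox peak, those with most DMSO peaks next to Zfp638 and Zfp644 were Zfp951 (6), Zfp473 (5) and Zfp750 (5). Zfp384, Zfp827 and Zfp180 followed with 4 each. Zfp473 acts in the processing of histone mRNA, Zfp750 in epidermal differentiation, and the best scores of Zfp951, Zfp473, Zfp750 and Zfp384 were 13.3, 12.6, 11.8 and 12.2. Of the 6 Zfp951 peaks, 4 had a near-identical copy elsewhere. Both genes of the Dox list alone had a single peak, that of Zfp972 with 125 nt and a score of 18.7, and the Zfp972 peak too had such a copy.

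On the mRNA the peaks lay within long exons. Coding sequence held the middle base of 80.4% of DMSO peaks (76.8 to 83.5) and 81.8% of Dox peaks (77.1 to 85.7), against 72.0% and 71.1% over all protein-coding genes. An exon of at least 400 nt held 91.6% (88.9 to 93.7) and 94.5% (91.3 to 96.5), against 62.2% and 68.7%. The exons under coding Zfp peaks had a median length of 2410 and 2465 nt, against 432 and 675.5 nt. Zfp genes with and without a peak had a median longest exon of 2850 and 2498 nt, against 1438 nt over all protein-coding genes with a peak. These shares were not adjusted for exon length. The last exon held 65.0% and 64.0% of peaks, against 43.4% and 46.7%. In 129 of the 144 genes (89.6%) the longest exon with coding sequence was the last one, as it was in 84.6% of all protein-coding genes with a peak. The stop codon was at most 200 nt away for 13.5% (10.8 to 16.6) and 16.2% (12.5 to 20.8), against 22.9% and 25.1% over all protein-coding genes, and the 3′UTR held 16.6% and 15.6%, against 24.6% and 25%.

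**Figure D4:**
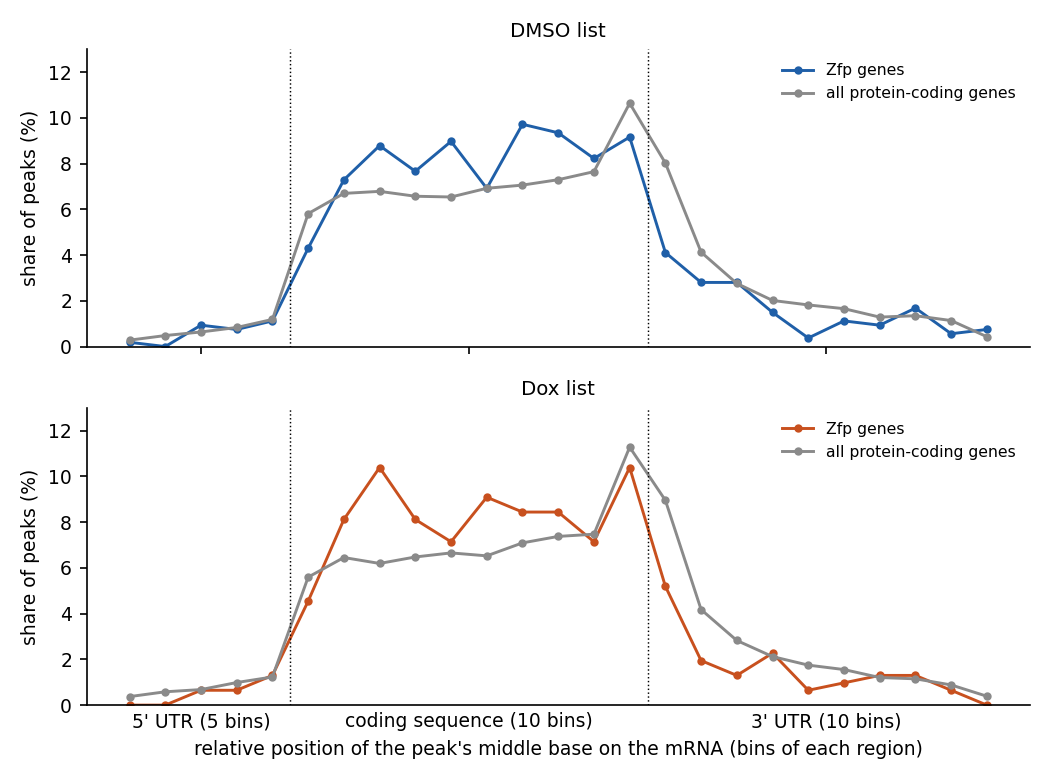
Share of peaks (y axis, %) by the relative place of their middle base on the mRNA (x axis, bins of the 5′UTR, coding sequence and 3′UTR, parted by dotted lines), for the Zfp genes (coloured) and all protein-coding genes (grey) in each list. The Zfp lines run at or above the grey ones through most of the coding sequence and below them in its last bin and at the start of the 3′UTR.

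Within coding sequence, finger and other parts both carried peaks. C2H2 fingers were found as C-X2-4-C-X12-H-X2-6-H matches in the translated annotation, with links of up to 10 residues between matches counted as finger sequence, and 123 of the 144 genes had at least 3 matches. In these genes 34.4% of coding DMSO peak bases and 28.4% of coding Dox peak bases encoded fingers or links. Finger sequence made up 39.5% and 36.8% of the coding sequence of the same genes, and 36.4% and 32.3% would be reached if the peak bases of each gene were spread evenly over its coding sequence. By middle base, 145 of 369 coding DMSO peaks (39.3%, 34.5 to 44.4) lay in finger sequence, close to its share of the coding sequence, and 68 of 219 coding Dox peaks (31.1%, 25.3 to 37.5). Gene by gene, with at least 100 coding peak bases, the finger share of the peaks was above that of the coding sequence in 44 of 100 genes for DMSO (44%, 34.7 to 53.8) and in 25 of 63 for Dox (39.7%, 28.5 to 52.0). Both intervals include 50%, which need not be the share of genes above under even placement, so no conclusion is drawn from this. With the KRAB pattern described below it was above in 23 of 43 genes for DMSO (53.5%, 38.9 to 67.5) and 12 of 25 for Dox (48%, 30.0 to 66.5). Without that pattern it was above in 21 of 57 genes for DMSO (36.8%, 25.5 to 49.8) and 13 of 38 for Dox (34.2%, 21.2 to 50.1). Zfp961 and Zfp987 were among those above, each with a DMSO peak (525 and 575 nt) made up wholly of finger sequence, though all peaks of Zfp987 had a near-identical copy elsewhere.

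The core motif GGAC was less dense in finger sequence. It occurred 1.80 times per 1000 nt inside fingers and links and 4.76 times in the rest of the coding sequence of the Zfp genes with a peak and at least 3 matches, and 1.37 and 4.21 times in Zfp genes with such matches and no peak. The wider DRACH motif differed less, with 19.2 and 23.4 per 1000 nt. Under DMSO peaks GGAC occurred 2.79 times inside and 5.71 times outside fingers, and under Dox peaks 3.74 and 6.66 times. Of 439 copies of the conserved link between neighbouring fingers, 276 (62.9%) held AAACC, a DRACH match. In Zfp genes with such matches and no peak, 808 of 1228 links (65.8%) held it. None held GGAC, but the links were found by their residues TGEKP, whose codons cannot spell GGAC. The absence of GGAC from the links therefore says nothing about the peaks. The 3 commonest forms of this link are shown, with AAACC in capitals. They made up 16.4%, 10.9% and 5.92% of the links in the Zfp genes with a peak and lie in many genes, so no position is given.
Link form 1: acaggagagAAACCt
Link form 2: actggagagAAACCc
Link form 3: acaggagagAAACCc

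**Figure D5:**
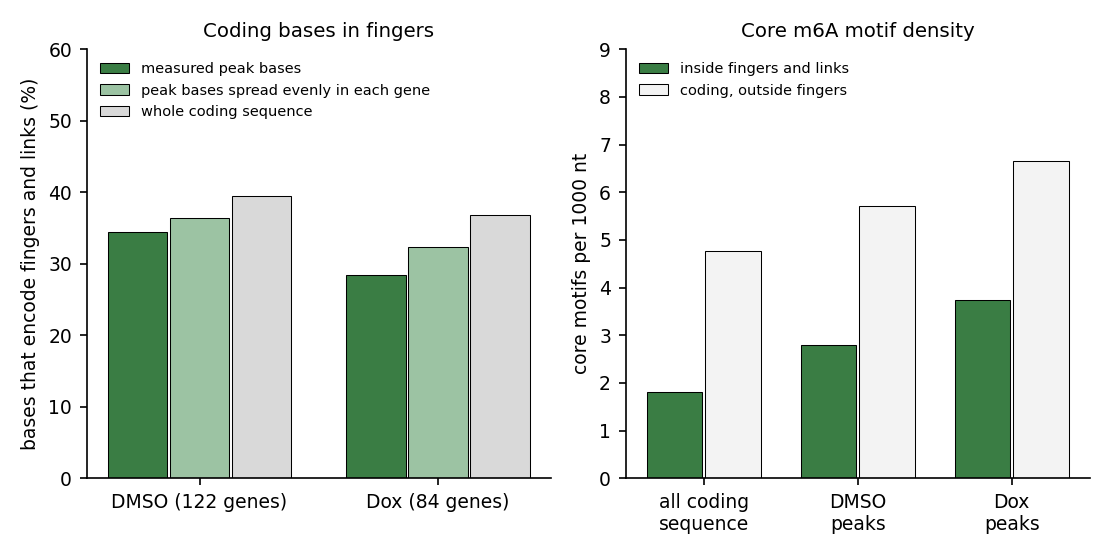
Left, share of coding bases that encode C2H2 fingers and links (y axis, %) among peak bases, among the same peak bases spread evenly in each gene, and in the whole coding sequence, for Zfp genes with at least 3 matches in each list. Right, GGAC per 1000 nt (y axis) inside and outside fingers in the whole coding sequence and under the peaks. Measured peak bases are the lowest bar of each set on the left (34.4% and 28.4%), and the motif is sparser inside fingers in all 3 pairs on the right.

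GGAC was held by 47.2% of DMSO peaks (43.0 to 51.4) and 56.6% of Dox peaks (51.1 to 61.9), against 54.1% and 55.9% over all protein-coding genes. Of the DMSO peaks that no Dox peak overlapped, 29.6% (24.7 to 34.9) held the motif, against 68.5% (62.5 to 74.0) of the overlapped ones. The same split is not given over all protein-coding genes, so it is not shown to be particular to Zfp genes. The former had a median length of 50 nt and the latter of 250 nt, and per 1000 peak bases they held GGAC 4.59 and 5.6 times. DRACH was held by 87.1% and 89.7% of peaks.

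A KRAB domain was looked for with a short pattern of its A box, which misses diverged copies. It was found in 57 of the 144 genes with a peak (39.6%, 32.0 to 47.7) and in 140 of the 248 Zfp genes without one (56.5%, 50.2 to 62.5). Among the 57, 23 were in the DMSO list alone (40.4%, 28.6 to 53.3), against 23 of the other 87 (26.4%, 18.3 to 36.6), and the ratio of DMSO to Dox peaks was 2.10 (183 and 87 peaks) with the pattern and 1.57 (366 and 233) without it. Genes with and without a peak had a median of 9 and 11 C2H2 matches and of 1834 and 1684 nt of coding sequence.

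Peaks were spread unevenly over the gene clusters. On chromosome 4, from 145510759 to 147848366, 11 of 18 Zfp genes carried peaks, 54 for DMSO and 36 for Dox, among them Zfp600, Zfp980, Zfp987, Zfp990 and Zfp992. Of its 90 peaks, 79 matched another place in the genome (98% identity or more, across 90% or more of the peak), and these 79 were 57.7% of the 137 such Zfp peaks in all. The gene that each of these 79 belongs to is therefore uncertain. On chromosome 7, from 29768552 to 30169750, 8 of 15 genes carried peaks, 23 and 10, none with such a copy. The clusters of chromosome 13 (67038596 to 67827002) and chromosome 17 (21008903 to 23599487) had 1 and 2 of 23 genes with a peak each, Zfp459, and Zfp229 with Zfp13. Without the peaks of the chromosome 4 cluster, 495 DMSO and 284 Dox peaks remained, a ratio of 1.74, and within it the ratio was 1.5.

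The cell state labels were checked through other genes. The pluripotency genes Pou5f1, Sox2, Nanog, Sall4 and Esrrb had 3, 1, 4, 6 and 6 DMSO peaks and 3, 1, 3, 7 and 7 Dox peaks. Of the genes of 2C-like cells, Duxf3, Tcstv1 and Usp17la had 4, 1 and 5 peaks in the Dox list and none in the DMSO list, and Zscan4c and Zscan4d had 4 and 1 DMSO peaks and 3 and 4 Dox peaks. Because Dox switches on a Dux transgene in these cells, the Duxf3 peaks are no independent check of the cell state.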

How the data were processed

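The labels and the study's methods name fastp 0.19.4 for read filtering and HISAT2 2.2.1 for alignment to mm10. The study's methods name exomePeak2 as the peak caller for IP against input, and its version and settings are not given in the sources used here. The deposited peak lists gave, per peak, its exon blocks and a value taken here to be the authors' −log10 p-value. No source names that column, and whether it was adjusted is not stated. All values were at least 10, and lengths ran in steps of 25 nt. Depth per library was not analysed here. Each treatment has 1 list, so that its 2 replicates could not be compared.

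Peaks were set against GENCODE M21 with an overlap of at least 1 base of exon on the same strand. Positions used the transcript with the longest coding sequence. Sequence came from the RefSeq copy of GRCm38. All 90 DMSO and 42 Dox inner block edges of the Zfp peaks lay at annotated exon edges. Other loci were searched with blastn 2.17.0 (98% identity over 90% of the peak). Python 3.11.15, numpy 2.4.6, scipy 1.17.1 and matplotlib 3.10.9 were used, and the steps were tested on simulated transcripts, proteins and peaks. Values are descriptions with 95% Wilson intervals, which treat peaks as independent although peaks of a gene are not.

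Zfp genes were named by rule: Zfp638, the 8 with most peaks, the 5 with the best score in each list, up to 6 with peaks in 1 list alone, and lists of genes by role. Zfp292, Zfp865, Zfp512, Zfp955b, Zfp980 and other single genes given as examples were chosen after their values were seen. Alternatives were a higher score, equal list sizes, other overlaps, transcripts, windows, exon lengths, finger and motif definitions, and leaving out peaks with another locus. The members, lists and alternatives were chosen with earlier results of these data known. Sequences of some chromosomes are not reported here.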

Additional observations from a re-analysis of the deposited data

How the results depend on the processing

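Of 68 values recomputed over 19 results, 37 stayed within the interval or within 1.5 times, and 31 did not; the cause was not tested. With a score of at least 15 in both lists, which left 20 DMSO and 17 Dox peaks, 18 genes had a DMSO and 15 a Dox peak, 11 the first alone and 8 the second alone, the ratio of peaks was 1.18, 5% of DMSO and 5.88% of Dox peaks were overlapped, 73.7% and 87.5% lay in coding sequence, 12.5% of Dox peaks lay at the stop codon, 47.4% and 50% in the last exon and 84.2% and 68.8% in a long exon, 12.5% of coding Dox peak bases of all members encoded fingers (24.8% in the main setting), and 70% of DMSO peaks held GGAC. The 2 overlap shares at this score had wide intervals (0.888 to 23.6 for DMSO and 1.05 to 27.0 for Dox). Both lists were cut there, so a peak whose partner scored under 15 counted as not overlapped. In the uncut lists, 73.0% of DMSO and 96.9% of Dox Zfp peaks in the highest 25% of scores were overlapped. Overlap at this score is not given over all protein-coding genes. With equal list sizes, 23 genes were in the DMSO list alone and 4 in the Dox list alone, the ratio was 1.06, and 62.4% and 84.1% of peaks were overlapped. Without peaks that have another locus, 1 gene was in the Dox list alone. With 50% of a peak required to be covered, 36.4% of DMSO peaks were overlapped. A window of 400 nt put 25.1% and 24.4% at the stop codon, and exons of at least 800 nt held 86.7% and 89.0%. C2H2 matches without links gave 24.7% of coding DMSO peak bases in fingers (30.3% with links, all members). DRACH gave 87.1% and 89.7%, and peaks of 75 to 150 nt gave 47.4% with GGAC for Dox. An alternative chosen after seeing the data, which left out peaks with another locus of at least 95% identity over 50% of their length, left 113 genes with a DMSO and 72 with a Dox peak, 43 of them in the DMSO list alone.

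No paired analysis was possible because the replicates of a treatment share 1 combined list, which also prevented leaving out replicates. The number of reads behind a peak is unknown, so a peak absent from a list is not shown to be absent from the RNA, and the lists hold no value under the score floor of 10.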

Other observations

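By chromosome, the Zfp genes with a peak were most numerous on chromosome 7, with 37 of 92 genes, 120 DMSO peaks and 71 Dox peaks. Chromosome 2 had 8 of 28, chromosome 13 had 8 of 36 and chromosome 17 had 12 of 46. None of the 9 Zfp genes of the X chromosome carried a peak, where 36.7% of all 392 Zfp genes did. With so few genes this is a description only.

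On 2 of the 17 runs of 5 or more Zfp genes, the 6 genes around Zfp354a on chromosome 11 (50811086 to 51072799) and the 6 around Zfp28 on chromosome 7 (6131491 to 6396915), no peak was found, whereas 5 of 10 genes on chromosome 7 from 127233061 to 127885996 (Zfp553, Zfp747, Zfp688, Zfp668 and Zfp646) held 19 DMSO and 16 Dox peaks. Runs of this size are too small to set against the 36.7% of all Zfp genes.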
